A study of Mus musculus with 24 samples.

Results

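Transcripts of 8 genes of sterol synthesis and its control were followed in mouse macrophages and B cells at rest and after activation of TLR4. The genes were Hmgcs1, Idi1, Fdps, Fdft1, Sqle, Lss, Dhcr7 and Insig1. They were chosen by name, and the probes whose gene name in the scanner files equals one of these symbols were taken. That gave 17 probes of 41174 on the array and 8 genes of 21597 gene symbols, and all 8 were among the 17339 genes tested. For each gene the probe with the highest mean level was used. All 8 are genes of synthesis or of its feedback, and sterol uptake was read from a separate list of genes.

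Cells make cholesterol from acetyl-CoA through the mevalonate pathway, whose isoprenoid products are joined to squalene, closed to lanosterol and then converted to cholesterol. When sterols in the endoplasmic reticulum are low, SCAP carries the SREBP transcription factors to the Golgi, where proteases release the active factor, which raises transcription of the enzymes of the pathway and of genes of sterol uptake. INSIG proteins hold SCAP back when sterols are plentiful, and 25-hydroxycholesterol, made by the enzyme encoded by Ch25h, is a strong signal for this retention. Macrophages take up and store large amounts of cholesterol, and activation through TLR4 is known to alter their sterol and oxysterol metabolism.

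Cells of 3 types from C57BL/6 mice were compared. Elicited peritoneal macrophages (EPM) had been recovered by lavage after thioglycollate and kept as adherent cells overnight. Bone marrow-derived macrophages (BMDM) had been grown with M-CSF. B cells were spleen cells left after magnetic removal of cells carrying CD43 or CD11b. Each cell type had 4 conditions, namely an early control, Kdo2 lipid A (KLA, a defined TLR4 agonist) for 1 h, DMSO for 12 h and KLA for 12 h. The early control was untreated in EPM and B cells and DMSO for 1 h in BMDM, so that the control of the 1 h comparison was not the same in the 3 cell types. Each condition had 2 biological replicates (n = 2), one in the Cy5 and the other in the Cy3 channel of 1 array, which gave 24 channels on 12 arrays. All values are normalized log2 intensities, given as Cy5 and then Cy3, and a change is a difference of log2 means with its SE. Adjusted p-values are from limma over all genes tested, and a change with an adjusted p under 0.05 is said to have passed.

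Both replicates of a condition shared an array, so the spread between them does not hold the spread between arrays, and p-values measure the former only. Loess within arrays also removed differences between the 2 channels that followed intensity. The p-values therefore measure only the spread between replicates that was left after this step. Each cell type had a slide of its own for its 4 arrays, so that a slide effect and a cell type effect cannot be told apart. Between 57.4% and 64.9% of probes were well above background in a channel. All 8 macrophage markers were detected in both channels of every EPM and BMDM condition and 4 to 5 of 8 in B cells, while 8 of 8 B cell markers were detected in B cells. In EPM 5 to 7 of the 8 B cell markers were also detected, and in BMDM 5 to 6. Their summed intensity was 60365 to 67971 in EPM and 20333 to 29442 in BMDM, against 275235 to 344711 in B cells. The part of these markers in the results was not tested. The change of Tnf, a target of TLR4, with KLA at 1 h was 6.73 in EPM and 3.95 in BMDM. In B cells it was 0.19 as labelled (adjusted p = 0.163, limma) and -1.06 with 2 B cell arrays exchanged for the reason given below. Tnf was 1 of 5 genes read as a check, with Il1b, Cxcl2, Cxcl10 and Isg20. In B cells as labelled 0 of the 5 passed at 1 h, and 2 rose at 12 h (2.81% of all genes tested). After the exchange 1 rose and 3 fell at 1 h, where 4334 of 17336 genes tested rose and 3883 fell. At 12 h 2 then rose and 2 fell, where 24.8% of all genes tested rose. In the authors' table of normalized values, the 4 columns of B cells with KLA for 1 h and with DMSO for 12 h followed the scanner values of the other of these conditions (r from 0.899 to 0.915) and ran against their own (r from -0.813 to -0.762). The changes of the 8 genes in these B cell arrays are therefore given as labelled and with the 2 arrays exchanged.

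RefSeq held promoter windows for 5 of the 8 genes, and 3 of them are shown. The Hmgcs1 and Insig1 windows hold letters known from sterol-responsive promoters, and the Dhcr7 window is shown for the gene with the greatest change in EPM at 12 h. Each sequence holds the 250 bases before a transcription start (GRCm38.p6, plus strand, 5′ to 3′). Capitals mark the sterol regulatory element-like letters TCACNCCAC or CACNCCAC, or the CCAAT box, to which the SREBP partner NF-Y binds, searched on both strands, so that ATTGG is CCAAT on the minus strand.
Hmgcs1, chr13:119690101-119690350: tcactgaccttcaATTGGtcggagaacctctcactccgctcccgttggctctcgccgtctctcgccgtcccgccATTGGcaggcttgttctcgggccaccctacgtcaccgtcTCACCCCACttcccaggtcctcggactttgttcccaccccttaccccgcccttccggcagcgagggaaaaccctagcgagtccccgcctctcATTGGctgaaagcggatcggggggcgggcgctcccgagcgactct
Insig1, chr5:28071162-28071411: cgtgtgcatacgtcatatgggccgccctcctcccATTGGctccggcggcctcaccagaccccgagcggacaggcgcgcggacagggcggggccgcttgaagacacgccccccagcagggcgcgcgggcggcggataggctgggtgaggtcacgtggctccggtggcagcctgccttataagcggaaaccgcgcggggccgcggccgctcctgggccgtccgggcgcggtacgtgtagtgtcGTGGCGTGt
Dhcr7, the most 3′ of its 3 listed starts, chr7:143829964-143830213: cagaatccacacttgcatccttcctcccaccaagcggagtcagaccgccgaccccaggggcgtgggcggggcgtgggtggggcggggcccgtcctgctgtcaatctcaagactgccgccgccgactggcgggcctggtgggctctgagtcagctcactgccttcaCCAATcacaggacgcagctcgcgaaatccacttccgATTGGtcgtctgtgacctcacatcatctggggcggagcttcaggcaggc

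The Hmgcs1 window held TCACNCCAC on the plus strand from position -137, counted from the start, and CCAAT on the minus strand at -237, -176 and -45. Of all 32851 promoter windows of this length, 1.05% held TCACNCCAC, 5.29% held CACNCCAC, which lies within the longer motif, and 33.8% held CCAAT. The Insig1 window held CACNCCAC on the minus strand from -9 and CCAAT on the minus strand at -216, and the Dhcr7 window held CCAAT at -85 on the plus and -49 on the minus strand. Over all windows of the 5 genes, 1 gene held TCACNCCAC, 2 held CACNCCAC and 5 held CCAAT. Dhcr7 held CCAAT only in the window printed and not at its other listed starts, while the shares of all windows count each window by itself. The windows of the other genes, Lss among them, are not printed. The E-box CACGTG, which was found in 6.02% of all windows, was held by 2 of the 5 genes, and GAAANNGAA, the letters of an interferon-stimulated element (7.13% of all windows), by 0. A match of letters says nothing of binding in these cells, and the arrays do not bear on it.

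At rest most of the genes were highest in EPM and lowest in B cells. Between the early controls, 6 of the 8 genes were higher in EPM than in BMDM, where 28.5% of all genes tested were. Dhcr7, which encodes the reductase of the last step to cholesterol, read 11.63 and 11.59 in EPM and 10.86 and 10.77 in BMDM, a difference of 0.79 ± 0.094 (SE, n = 2 and 2, adjusted p = 8.14e-07). The difference was 0.60 (adjusted p = 3.21e-07) for Fdps and 0.48 (adjusted p = 0.00105) for Hmgcs1, with no overlap of the channels of the 2 cell types for either gene. Sqle, Fdft1 and Insig1 differed by 0.34, 0.28 and 0.24. Idi1, with a difference of 0.022 (95% interval -0.13 to 0.17), and Lss, with -0.019 (95% interval -0.21 to 0.17), did not pass. The smaller differences rested on single channels, since Sqle (0.20) and Fdft1 (0.27) did not pass without the Cy5 channel of untreated EPM, and Insig1 (0.15) and Fdft1 (0.28) without its Cy3 channel. The same held for Fdft1 (0.22) and Insig1 (0.19) without the Cy5 channel of control BMDM, and for Sqle (0.30) without its Cy3 channel. With no normalization between arrays, Sqle (0.22), Fdft1 (0.12) and Insig1 (0.12) did not pass either. With the mean of all its probes Fdps differed by 0.039.

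Against untreated B cells, all 8 genes were higher in EPM (38.6% of all genes tested) and 7 of 8 in BMDM (39.2% of all genes tested). Sqle, the epoxidase that makes squalene ready for ring closure, read 9.56 and 9.47 in B cells, 11.50 and 11.22 in EPM and 11.07 and 10.98 in BMDM. It was 1.85 higher in EPM and 1.51 higher in BMDM than in B cells. For Lss, the synthase that closes the ring to lanosterol, B cells read 7.27 and 7.33, EPM 8.79 and 8.85 and BMDM 8.82 and 8.86, so that both macrophages lay above B cells and did not differ beyond their spread. Fdft1, squalene synthase, was the exception, with 9.68 and 9.70 in B cells and 9.70 and 9.81 in BMDM, a difference of 0.060 (adjusted p = 0.576). With the mean of all its probes in place of the brightest, Fdps turned direction and was lower in EPM (-0.28) and BMDM (-0.32) than in B cells. For these comparisons of bulk RNA, fewer expressing cells and less RNA per cell cannot be told apart.

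**Figure D1:**
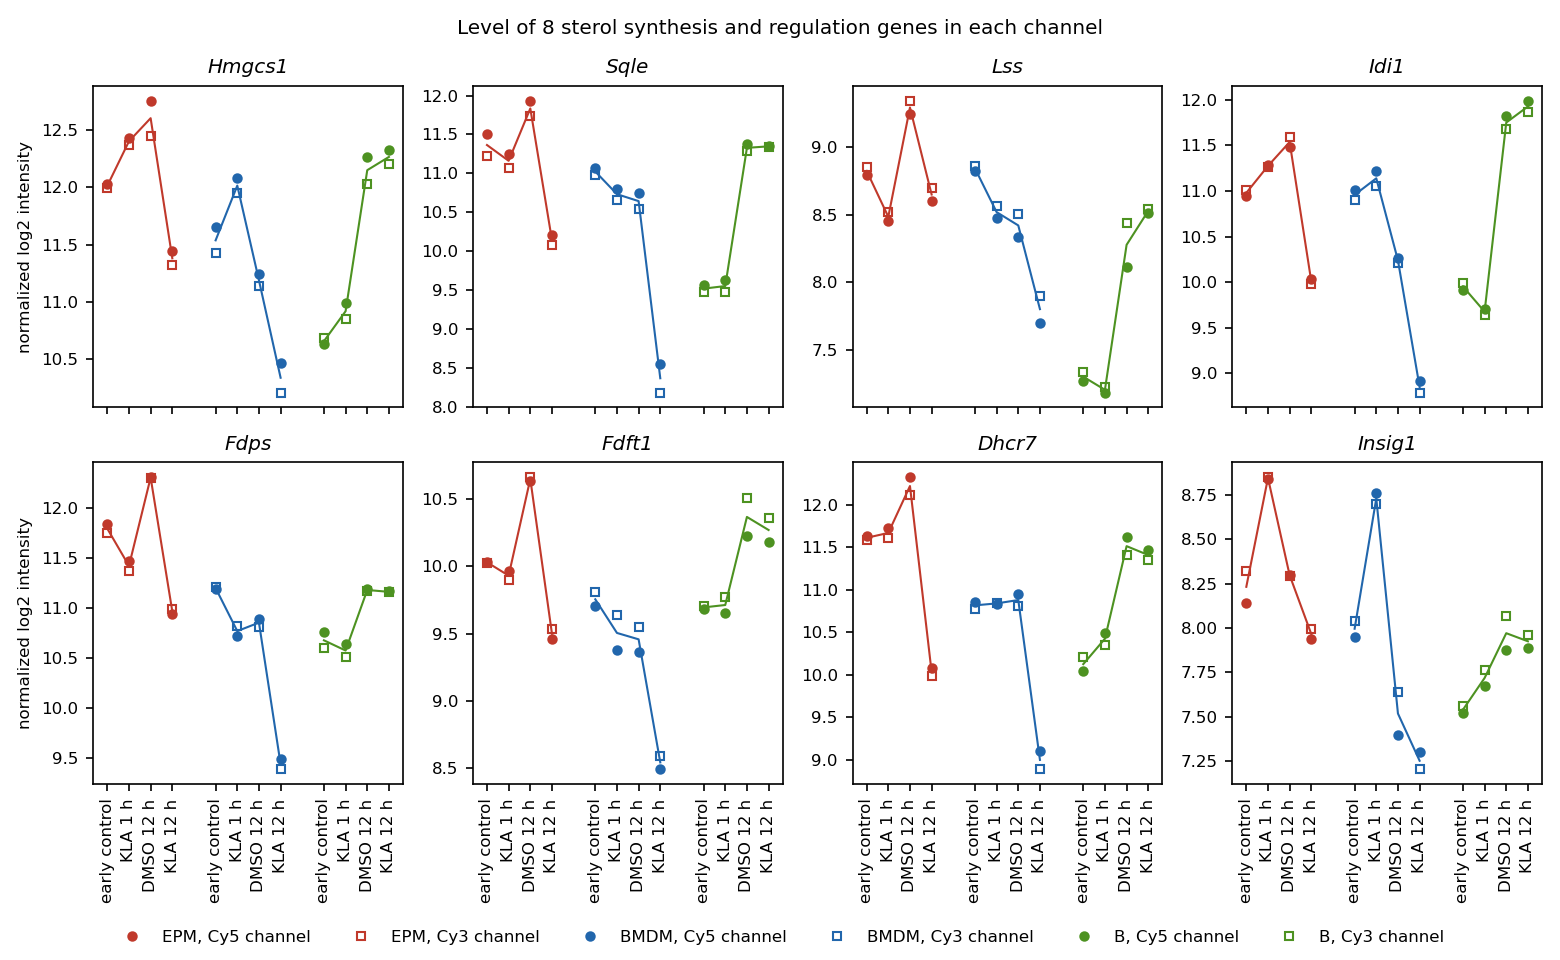
Normalized log2 intensity of the 8 genes in each of the 24 channels, with 1 panel per gene and its own y axis. Filled circles are Cy5 channels, open squares are Cy3 channels, lines join the condition means of a cell type (red EPM, blue BMDM, green B cells), and the early control is untreated in EPM and B cells and DMSO for 1 h in BMDM. In both macrophages each gene had its lowest mean of the 12 h pair with KLA, and in B cells the 12 h conditions lay above the other 2 as labelled.

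After 12 h of KLA, all 8 genes were lower than in the DMSO control of the same time in EPM and in BMDM. Of all genes tested 34.4% were lower in EPM and 36.4% in BMDM, against 19.6% and 28.6% higher, with a median change over all genes of -0.061 and -0.025. The median change of the 8 genes was -1.28 in EPM and -1.15 in BMDM. For each gene the 2 KLA channels lay below the 2 control channels in both macrophages. Such a separation needs no large change, since Fdps in B cells at 12 h as labelled also separated at -0.019 (adjusted p = 0.939, limma). The share of all genes separated in this way is not given here. In a further fit each array was 1 sample and the early and 12 h controls of a cell type were pooled, which leaves 3 residual degrees of freedom. There 0 of the 8 passed in EPM (adjusted p from 0.103 to 0.694, limma). In BMDM 1 passed, Fdps (adjusted p = 0.0262, limma, against up to 0.335 for the others). All 8 changes were still negative in both macrophages. The spread of that fit comes only from the differences between the early and 12 h controls. It holds their change over time as well as any spread between arrays, which cannot be told apart, so these counts do not measure the latter.

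The early enzymes, which make the isoprenoid units, all fell at 12 h. Hmgcs1, the synthase of HMG-CoA, read 12.76 and 12.45 in control EPM and 11.44 and 11.32 with KLA, a change of -1.22 ± 0.11 (SE, n = 2 and 2, adjusted p = 1.93e-08) or 2.33-fold lower. In BMDM it went from 11.24 and 11.14 to 10.47 and 10.21, a change of -0.85 ± 0.11 (SE, n = 2 and 2, adjusted p = 1.54e-06). Idi1 encodes the isomerase that balances the isoprenoid units isopentenyl and dimethylallyl diphosphate. Its level was 11.49 and 11.59 without and 10.04 and 9.98 with KLA in EPM, a change of -1.53 ± 0.073 (SE, n = 2 and 2, adjusted p = 1.94e-12) or 2.89-fold lower. The BMDM values were 10.27 and 10.21 and 8.91 and 8.79, a change of -1.39 ± 0.073 (SE, n = 2 and 2, adjusted p = 5.37e-12). Fdps encodes the synthase of farnesyl diphosphate, which also feeds protein prenylation. It fell from 12.31 and 12.30 to 10.94 and 11.00 in EPM, a change of -1.34 ± 0.066 (SE, n = 2 and 2, adjusted p = 3.40e-12). In BMDM it fell from 10.90 and 10.82 to 9.49 and 9.39, a change of -1.42 ± 0.066 (SE, n = 2 and 2, adjusted p = 1.01e-12).

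The enzymes committed to sterols held the greatest and one of the smallest of these changes. Fdft1 went from 10.64 and 10.67 to 9.46 and 9.53 in EPM (-1.15, adjusted p = 6.24e-09), and from 9.37 and 9.55 to 8.49 and 8.59 in BMDM (-0.92, adjusted p = 9.47e-08). Sqle, a rate-controlling step of the pathway, had the greatest change of the 8 in BMDM. Its level there was 10.74 and 10.54 in the control and 8.55 and 8.18 with KLA, a change of -2.28 ± 0.12 (SE, n = 2 and 2, adjusted p = 4.31e-12) or 4.85-fold lower. In EPM Sqle read 11.94 and 11.73 and 10.20 and 10.08, a change of -1.69 ± 0.12 (SE, n = 2 and 2, adjusted p = 5.08e-10) or 3.24-fold lower. Dhcr7 had the greatest change of the 8 in EPM. It went from 12.32 and 12.11 to 10.08 and 9.99, a change of -2.19 ± 0.094 (SE, n = 2 and 2, adjusted p = 4.61e-13) or 4.55-fold lower. In BMDM it went from 10.95 and 10.81 to 9.11 and 8.89, a change of -1.88 ± 0.094 (SE, n = 2 and 2, adjusted p = 3.07e-12) or 3.67-fold lower. Lss changed least among the enzymes, by -0.64 ± 0.089 (SE, n = 2 and 2, adjusted p = 5.71e-06) in EPM and -0.62 ± 0.089 (SE, n = 2 and 2, adjusted p = 6.14e-06) in BMDM.

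Insig1, the retention protein of the SREBP pathway and itself a target of SREBP, changed least of the 8 at 12 h. The EPM values were 8.30 and 8.29 in the control and 7.94 and 8.00 with KLA, a change of -0.33 ± 0.081 (SE, n = 2 and 2, adjusted p = 0.00185). The BMDM values were 7.40 and 7.64 and 7.30 and 7.20, a change of -0.27 ± 0.081 (SE, n = 2 and 2, adjusted p = 0.00744). Without the Cy3 channel of control BMDM at 12 h the BMDM change of Insig1 was -0.15 (adjusted p = 0.167), without the Cy3 channel with KLA it was -0.22 (adjusted p = 0.0693), and neither passed. With the mean of both its probes the EPM change was -0.096 and did not pass (adjusted p = 0.165), because its other probe gave 0.14. The BMDM change was -0.14 with that mean, -0.51 with processed signals and -0.52 with no normalization between arrays, and all 3 passed.

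The mean of all probes of a gene also made other 12 h changes smaller by over 1.5 times, although each of these still passed. Hmgcs1 then changed by -0.59 in EPM and -0.24 in BMDM, since its other 2 probes gave -0.18 and -0.38 in EPM and 0.065 and 0.063 in BMDM. Fdft1 changed by -0.59 in EPM and -0.44 in BMDM, and its other probe, well above background in 15 of 24 channels, gave -0.024 and 0.029. For Idi1 the BMDM change was -0.82. The other probe of Dhcr7, well above background in 24 of 24 channels, gave -1.26 in EPM and -0.69 in BMDM. That of Fdps, detected as widely, gave -0.77 and -0.52. For Lss 1 other probe gave larger falls than the probe used, -1.06 and -1.12, and 1 gave -0.52 and -0.57.

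The size of the 12 h change differed between EPM and BMDM for 1 of the 8 genes, where 47.9% of all genes tested differed. Sqle fell further in BMDM, with a difference of the KLA changes, EPM minus BMDM, of 0.58 ± 0.17 (SE, adjusted p = 0.00739). Without the Cy3 channel of BMDM with KLA it was 0.40 and did not pass (adjusted p = 0.0556), and with no normalization between arrays it was 1.04. Hmgcs1 with -0.37 (95% interval -0.70 to -0.047, adjusted p = 0.0558) and Dhcr7 with -0.31 (95% interval -0.59 to -0.028, adjusted p = 0.0654) fell further in EPM by their means but did not pass. With the dye as a block Hmgcs1 (adjusted p = 0.00210), Dhcr7 (adjusted p = 0.0102) and Fdft1 (-0.24, adjusted p = 0.0414) passed as well. For Fdps the 95% interval of the difference was -0.12 to 0.27 and for Idi1 -0.36 to 0.076.

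At 1 h of KLA the 8 genes did not move as 1 group. In EPM 3 rose, where 9.40% of all genes tested rose, and 2 fell, where 19.7% of all genes tested fell. In BMDM 2 rose (11.0% of all genes tested) and 2 fell (17.6% of all genes tested). Insig1 rose most in both. It went from 8.14 and 8.32 to 8.84 and 8.85 in EPM, a change of 0.61 ± 0.081 (SE, n = 2 and 2, adjusted p = 1.12e-05) or 1.53-fold. In BMDM it went from 7.95 and 8.04 to 8.76 and 8.70, a change of 0.73 ± 0.081 (SE, n = 2 and 2, adjusted p = 1.27e-06) or 1.66-fold. No KLA channel of Insig1 overlapped a control channel at 1 h. Hmgcs1 rose from 12.03 and 12.00 to 12.43 and 12.37 in EPM (0.39, adjusted p = 0.0113) and from 11.65 and 11.42 to 12.08 and 11.95 in BMDM (0.48, adjusted p = 0.00273). Idi1 rose in EPM, from 10.94 and 11.02 to 11.29 and 11.26 (0.30, adjusted p = 0.00453), and in BMDM its change was 0.18 (adjusted p = 0.0709).

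By the probes used, Fdps and Lss fell at 1 h in both macrophages. Fdps went from 11.84 and 11.75 to 11.48 and 11.37 in EPM (-0.37, adjusted p = 2.61e-04) and from 11.19 and 11.21 to 10.72 and 10.82 in BMDM (-0.43, adjusted p = 6.61e-05). Lss changed by -0.34 (adjusted p = 0.00707, limma) in EPM and -0.32 (adjusted p = 0.0102, limma) in BMDM. Its other probes, well above background in every channel, differed, with 0.015 and -0.52 in EPM and -0.15 and -0.58 in BMDM. The fall of Lss in EPM was thus not seen with each of its probes. The other genes gave -0.20 in EPM and -0.29 in BMDM for Sqle, -0.10 and -0.25 for Fdft1, and 0.058 and 0.023 for Dhcr7, and none of these passed. Dhcr7 in EPM turned direction and passed with processed signals (-0.21, adjusted p = 0.0472) and with the mean of its probes (-0.17, adjusted p = 0.00715). That mean gave 0.17 in EPM and 0.25 in BMDM for Hmgcs1 and -0.70 in BMDM for Fdps, and these still passed. With the dye as a block, 4 genes were lower and 3 higher in BMDM, since Sqle (adjusted p = 9.69e-04), Fdft1 (adjusted p = 0.00536) and Idi1 (adjusted p = 0.0269) then passed, and Sqle also passed in EPM (adjusted p = 0.0154). With arrays as samples 0 passed at 1 h in either macrophage (adjusted p from 0.613 in EPM and from 0.322 in BMDM, limma). That fit sets KLA against the pooled controls and takes its spread from their difference over time, so this count does not measure the spread between arrays.

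Several 1 h calls rested on 1 channel. Without the Cy3 channel of untreated EPM, Hmgcs1 (0.37) and Lss (-0.31) no longer passed in EPM, and the same was found without the Cy5 channel of EPM with KLA (0.36 and -0.31). Idi1 did not pass in EPM without the Cy5 channel of untreated EPM (0.26). In BMDM, Hmgcs1 (0.36) and Lss (-0.30) did not pass without the Cy3 channel of the control, nor did Lss without the Cy5 channel with KLA (-0.28). Without the Cy3 channel of BMDM with KLA, Idi1 (0.26) and Fdft1 (-0.38) passed as well. The rise of Insig1 and the fall of Fdps passed in both macrophages whichever channel was left out. Of the 8 genes 0 differed in the 1 h change between EPM and BMDM, where 9.55% of all genes tested did.

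**Figure D2:**
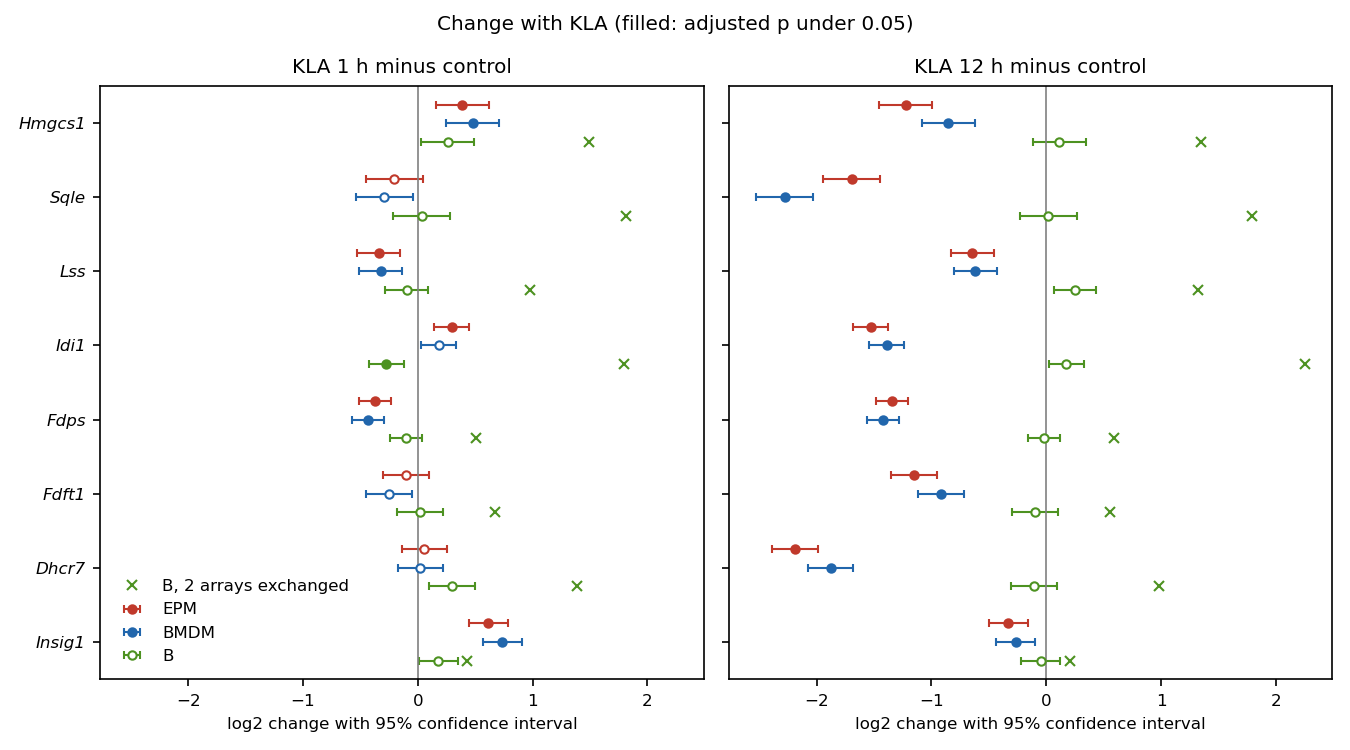
Change of each gene with KLA at 1 h against the early control (left; untreated in EPM and B cells, DMSO for 1 h in BMDM) and at 12 h against the 12 h DMSO control (right), on the x axis as a log2 difference with its 95% confidence interval, for EPM (red), BMDM (blue) and B cells (green, n = 2 channels per condition). Filled points passed an adjusted p of 0.05, and green crosses give B cells with the 2 disputed arrays exchanged. At 12 h all 16 macrophage points lie below 0, whereas at 1 h Insig1 and Hmgcs1 lie above 0 and Fdps and Lss below it.

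The change from 1 h to 12 h was itself tested as the difference of the KLA changes. It was negative past the threshold for 7 of 8 genes in EPM (24.3% of all genes tested) and 7 of 8 in BMDM (29.9% of all genes tested). Insig1, raised at 1 h and lowered at 12 h, shifted by -0.94 ± 0.11 (SE, adjusted p = 1.89e-06) in EPM and -1.00 ± 0.11 (SE, adjusted p = 5.84e-07) in BMDM. Hmgcs1 turned in the same way, with -1.61 ± 0.15 (SE, adjusted p = 9.39e-08) in EPM and -1.33 ± 0.15 (SE, adjusted p = 7.37e-07) in BMDM. The greatest shift was that of Dhcr7 in EPM, -2.24 ± 0.13 (SE, adjusted p = 1.18e-10), and of Sqle in BMDM, -1.99 ± 0.17 (SE, adjusted p = 9.30e-09). Lss did not pass in either, with -0.30 (adjusted p = 0.0593) and -0.30 (adjusted p = 0.0552). With the dye as a block Lss passed in both (adjusted p = 0.00507 and 0.00506). The 2 controls were not of one kind, since the early one was untreated in EPM.

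The controls also changed between the early and the 12 h time point, in opposite directions in the macrophages. In EPM 7 of 8 genes were higher in the 12 h DMSO control than in untreated cells, where 10.8% of all genes tested were, with changes of 0.47 (Lss) to 0.62 (Fdft1), and Insig1 gave 0.065 (adjusted p = 0.660). In BMDM 7 of 8 were lower at 12 h than at 1 h in DMSO, where 10.0% of all genes tested were, from -0.30 (Fdft1) to -0.72 (Idi1), and Dhcr7 gave 0.062 (adjusted p = 0.705). Of these, Hmgcs1, Sqle and Fdft1 in BMDM each fell short of the threshold when some single control channel was left out, with -0.24, -0.34 and -0.35 without the Cy5 channel at 1 h. They gave -0.29 (Hmgcs1) and -0.28 (Sqle) without the Cy3 channel at 12 h, -0.40 (Hmgcs1) and -0.21 (Fdft1) without the Cy5 channel at 12 h, and -0.43 (Sqle) and -0.25 (Fdft1) without the Cy3 channel at 1 h. Sqle in EPM did not pass without the Cy3 channel of untreated cells (0.33) or the Cy5 channel at 12 h (0.37). Dhcr7 in EPM, for example, read 11.63 and 11.59 untreated, 12.32 and 12.11 with DMSO and 10.08 and 9.99 with KLA at 12 h, so that the KLA channels lay below both controls. Idi1 in BMDM read 11.01 and 10.91, 10.27 and 10.21 and 8.91 and 8.79 in the same order. Lss in EPM read 8.79 and 8.85, 9.24 and 9.34 and 8.60 and 8.70 in that order. Its KLA channels lay nearer to untreated cells than to the DMSO control. At 12 h all 8 genes were higher in control EPM than in control BMDM (27.2% of all genes tested), by 0.78 for Insig1 to 1.45 for Fdps. DMSO and time in culture changed together in EPM and cannot be told apart.

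**Figure D3:**
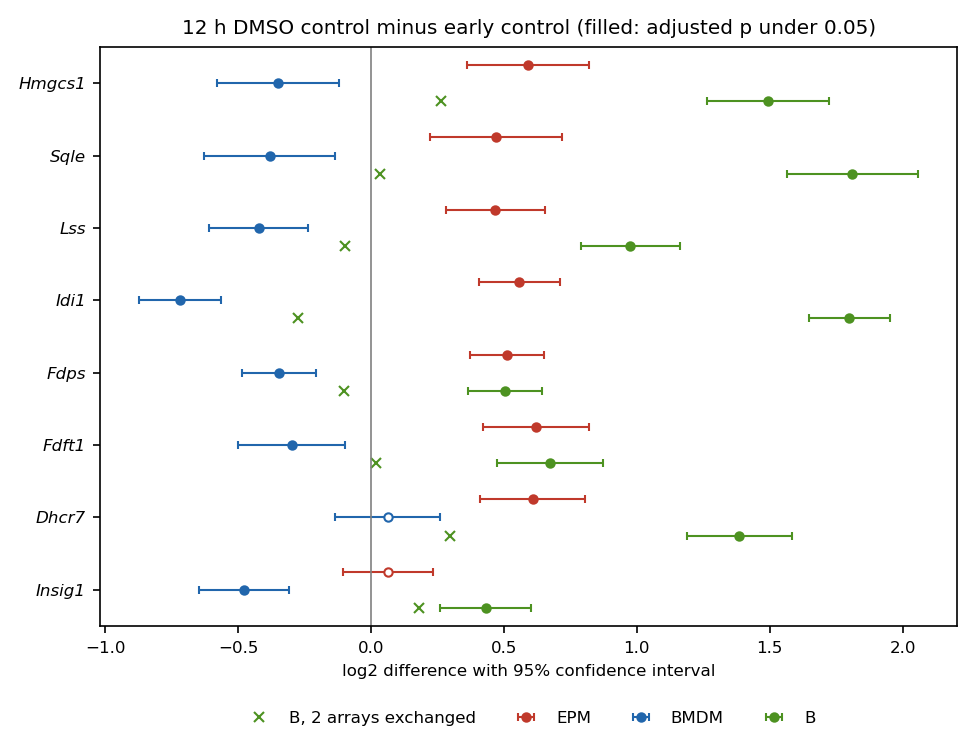
Difference of the 12 h DMSO control from the early control for each gene, as a log2 difference with its 95% confidence interval, in EPM (red), BMDM (blue) and B cells (green, as labelled). Filled points passed an adjusted p of 0.05 and green crosses give B cells with the 2 disputed arrays exchanged. EPM points lie above 0, BMDM points lie below 0 except Dhcr7, and the B cell values move toward 0 with the exchange.

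In B cells as labelled, few of the 8 genes passed with KLA. At 1 h 0 rose (2.72% of all genes tested) and 1 fell (2.45% of all genes tested), and at 12 h 0 rose (2.81% of all genes tested) and 0 fell (2.49% of all genes tested). The gene that fell at 1 h was Idi1, from 9.91 and 9.99 to 9.71 and 9.64, a change of -0.28 ± 0.073 (SE, n = 2 and 2, adjusted p = 0.0334), and it did not pass when any 1 of the 4 channels was left out (-0.32 to -0.24). At an unadjusted p under 0.05, the count at 1 h was 4 genes, Idi1 and, all 3 higher, Hmgcs1 (0.26, adjusted p = 0.193), Dhcr7 (0.30, adjusted p = 0.0775) and Insig1 (0.18, adjusted p = 0.233). The count at 12 h was 2 genes, both higher, Lss with 0.25 (adjusted p = 0.127) and Idi1 with 0.18 (adjusted p = 0.208). The share of all genes tested at this unadjusted threshold is not given here, so that these counts have no background. With the mean of its probes Idi1 gave -0.12 at 1 h and did not pass. With the dye as a block, Hmgcs1 (0.26, adjusted p = 0.0125) and Dhcr7 (0.30, adjusted p = 0.00605) passed as higher at 1 h and Lss (adjusted p = 0.00882) at 12 h. Without the Cy3 channel of the 12 h control, Lss passed at 12 h with 0.41.

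With the 2 disputed B cell arrays exchanged, the same values gave another picture. All 8 genes were then higher with KLA at 1 h, by 0.43 for Insig1 to 1.81 for Sqle, where 25.0% of all genes tested were higher. All 8 were also higher at 12 h (24.8% of all genes tested), by 0.21 for Insig1 to 2.25 for Idi1. The array labelled DMSO for 12 h read 11.37 and 11.28 for Sqle, the array labelled KLA for 1 h 9.63 and 9.47, untreated cells 9.56 and 9.47 and KLA for 12 h 11.36 and 11.34. Sqle thus had a high pair and a low pair of arrays, and the labels of 1 of each pair are in dispute. A comparison that uses neither disputed array sets KLA for 12 h against untreated cells, and there all 8 genes were higher (23.6% of all genes tested), from 0.39 for Insig1 to 1.98 for Idi1. That comparison was added after the data were seen, and in it KLA and time in culture cannot be told apart.

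As labelled, the 12 h DMSO control of B cells was higher than untreated cells for all 8 genes (25.0% of all genes tested), with a median of 1.18. Sqle had the greatest difference, 1.81 ± 0.12 (SE, adjusted p = 4.56e-10), followed by Idi1 with 1.80 ± 0.073 (SE, adjusted p = 9.32e-13) and Hmgcs1 with 1.49 ± 0.11 (SE, adjusted p = 2.31e-09). After the exchange 0 genes were higher (2.72% of all genes tested) and 1, Idi1, was lower (-0.28, where 2.45% of all genes tested were lower), and the median was 0.026. Likewise, 7 of 8 genes were lower in control BMDM than in control B cells at 12 h as labelled (37.3% of all genes tested), and Lss gave 0.14 (adjusted p = 0.151). Lss passed there with the dye as a block (adjusted p = 0.0371) and without the Cy3 channel of the B cell control (0.30). With no normalization between arrays Fdps turned (0.18, adjusted p = 0.0166), and Sqle (-0.15), Dhcr7 (-0.11) and Insig1 (-0.14) did not pass. In EPM against B cells 7 genes were higher and Idi1 was lower (-0.21), so that all 8 passed (77.0% of all genes tested in either direction). Idi1 did not pass without the Cy5 channel of control EPM (-0.16) or of control B cells (-0.14), nor did Fdft1 without the latter (0.14) or the Cy3 channel of control EPM (0.27). Fdps turned direction with the mean of all probes (-0.25, adjusted p = 0.00157), and Idi1 with no normalization between arrays (0.22, adjusted p = 0.0112). With the mean of all probes Hmgcs1 (0.076) and Idi1 (-0.016) did not pass, nor did Idi1 with quantile normalization (-0.14). After the exchange all 8 genes were higher in EPM than in B cells (37.6% of all genes tested), by 0.58 for Insig1 to 2.28 for Sqle. In BMDM 6 were then higher, among them Idi1 (0.56), and Fdft1 (-0.26) and Insig1 (-0.20) were lower, so that all 8 passed (76.2% of all genes tested in either direction).

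The response of B cells was compared with that of the macrophages as the difference from the mean of EPM and BMDM. At 12 h the KLA change was more positive in B cells for all 8 genes (33.8% of all genes tested), from 0.25 for Insig1 to 2.01 for Sqle as labelled, and from 0.51 to 3.78 for the same genes after the exchange, when all 8 again passed (36.7% of all genes tested). For Insig1 as labelled, the difference no longer passed without any 1 of 7 channels of the 12 h conditions (0.16 to 0.25). Nor did it pass with the mean of both its probes (0.094). At 1 h 3 of the 8 differed (21.9% of all genes tested in either direction), Idi1 with -0.51 ± 0.089 (SE, adjusted p = 3.20e-04), Insig1 with -0.49 ± 0.099 (SE, adjusted p = 0.00120) and Fdps with 0.30 ± 0.081 (SE, adjusted p = 0.0115). Fdps did not pass without the Cy3 channel of untreated B cells (0.22) or the Cy5 channel of B cells with KLA (0.24), and with the dye as a block Sqle (0.28), Lss (0.23) and Dhcr7 (0.26) passed as well. After the exchange 7 of the 8 were more positive in B cells at 1 h (28.9% of all genes tested), from 0.85 for Fdft1 to 2.06 for Sqle. Hmgcs1 turned from -0.17 as labelled to 1.06. Idi1 gave 1.56, Fdps 0.91 and Insig1 -0.24 (adjusted p = 0.0501). Between 12 h and 1 h in B cells 1 of the 8 differed (7.56% of all genes tested), Idi1 with 0.45 ± 0.10 (SE, adjusted p = 0.00991), a value that the exchange does not alter. It did not pass without the Cy3 channel of the 12 h control (0.38) or the Cy5 channel with KLA for 12 h (0.39), and with the dye as a block Lss (0.35) and Dhcr7 (-0.40) passed too. With the mean of its probes Idi1 gave 0.21 and did not pass.

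The other enzymes of sterol synthesis, a list of 15 tested genes, mostly fell at 12 h. For this list and those below, 34.4% of all genes tested fell and 19.6% rose in EPM at 12 h. In BMDM 36.4% of all genes tested fell and 28.6% rose. Of the 15, 12 fell and 2 rose in EPM (median -0.81), and 10 fell and 1 rose in BMDM (median -0.73). Sc4mol, the C4 sterol oxidase also called Msmo1, changed by -1.63 in EPM and -1.29 in BMDM. Ggps1, which makes geranylgeranyl diphosphate for protein prenylation, rose by 0.89 and 0.46.

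Genes of sterol uptake and delivery, of which 8 of 9 were tested, gave 3 lower and 1 higher in EPM (median -0.18) and 6 lower and 1 higher in BMDM (median -0.64). Stard4, a cytosolic sterol carrier, changed by -1.56 and -2.25, and Scarb1, the HDL receptor, by -1.06 and -1.12. The lysosomal sterol transfer proteins went in different directions, with Npc1 at -0.77 and -0.86 and Npc2 at 0.53 and 0.60.

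Of 10 genes of sterol sensing and SREBP control, 5 fell in EPM and 5 in BMDM at 12 h, and 2 and 3 rose. Srebf2, which encodes SREBP-2, the main activator of sterol synthesis, changed by -1.25 in EPM and -1.62 in BMDM, and its escort Scap by -0.85 and -1.42. Ch25h, cholesterol 25-hydroxylase, rose by 1.69 at 1 h and 5.23 at 12 h in EPM, and by 3.63 and 4.56 in BMDM. Nr1h3, the oxysterol receptor LXR alpha, rose by 0.64 and 1.84 at 12 h. Whether any of these changes bears on the 8 genes was not tested. Of 11 tested genes of fatty acid synthesis, 6 fell in EPM and 7 in BMDM, and 1 and 2 rose, with Acss2, an acetyl-CoA synthetase, at 0.50 and 0.63, Acaca, acetyl-CoA carboxylase, at 0.057 and 0.29, Fasn at -0.76 and -3.19 and Scd2 at -1.67 and -3.05. Acss2 and Acaca were chosen after their values were seen.

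**Figure D4:**
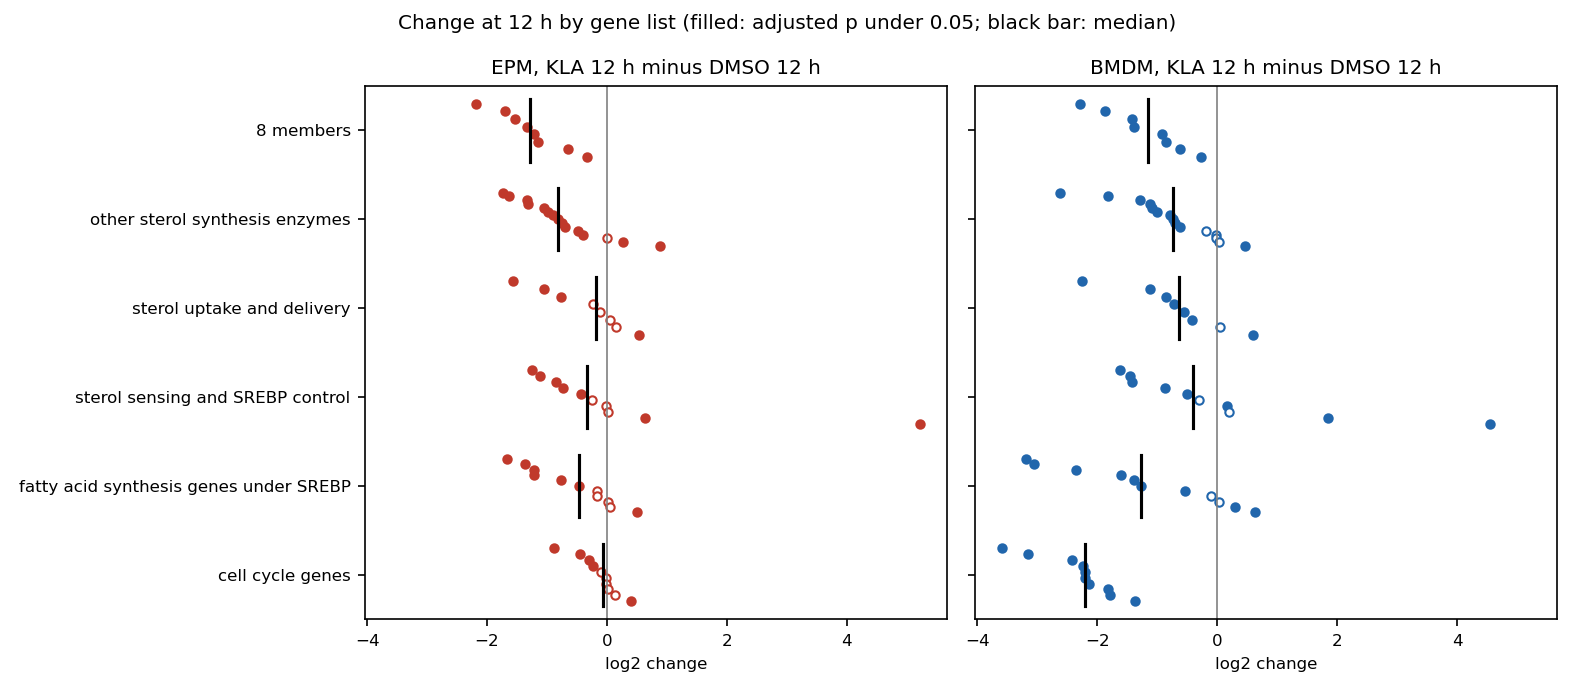
Change with KLA at 12 h of the genes of 6 lists in EPM (left) and BMDM (right), with the log2 change on the x axis and 1 point per gene, filled where the adjusted p was under 0.05, and a black bar at the median of the list. The 8 genes and most of the other sterol synthesis enzymes lie below 0 in both macrophages, while the cell cycle genes have a median of -0.062 in EPM and -2.21 in BMDM.

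Cell cycle genes, read beside the sterol lists since growing cells need sterols for membranes, gave other counts in the macrophages at 12 h. All 10 fell in BMDM and 4 of 10 in EPM, where 1 rose. The KLA change, EPM minus BMDM, was more positive for 9 of the 10, with a median of 2.01, and so it was for 4020 of all 17327 genes tested. Of 5 tested neutrophil markers 4 rose in BMDM and 2 in EPM, Camp (0.93) and S100a8 (0.63). The change was more positive in BMDM than in EPM for 3 of them, and so it was for 4271 of all 17327 genes tested. Their summed intensity was 9077 to 23318 over the BMDM channels and 847 to 1786 in EPM. The part of either in the BMDM values of the 8 genes was not tested. In EPM the cell cycle list had a median of -0.062, with changes from -0.88 to 0.40. The summed intensity of that list in EPM at 12 h was 35465 to 39439 with DMSO and 24342 to 25654 with KLA. The part of the cell cycle genes in the EPM values of the 8 genes was not tested either.

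At 1 h 9.40% of all genes tested rose and 19.7% fell in EPM, and 11.0% rose and 17.6% fell in BMDM. Of the other sterol enzymes 1 rose and 3 fell in EPM and 1 rose and 2 fell in BMDM. In the uptake list 1 rose and 4 fell in EPM, and 1 rose and 1 fell in BMDM. Of the 10 cell cycle genes 1 rose in EPM, and 1 rose and 6 fell in BMDM, and of the 5 neutrophil markers 2 rose in EPM and 3 in BMDM. In B cells as labelled 0 genes of the other sterol enzyme, uptake and sensing lists passed at 1 h or at 12 h. The 12 h control exceeded the untreated cells for 12 of the 15 other sterol enzymes (25.0% of all genes tested). After the exchange that count is the one of KLA at 1 h against untreated cells. At 12 h KLA then raised 12 and lowered 1 of the 15 other sterol enzymes, raised 3 and lowered 3 of the 8 uptake genes, and raised 3 and lowered 3 of the 10 sensing genes. Of all genes tested 24.8% were higher in that comparison, and the share that was lower is not given here.

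The pattern over conditions was compared between genes after each cell type's mean was removed, over 12 condition means. These points share arrays, slides and, in B cells, the disputed labels, and the correlations are descriptions. Pairs of the 8 genes correlated with r from 0.37 to 0.98 (median 0.87, 28 pairs). Outside the 8, the genes most like their mean included Sc4mol (r = 0.99), Hsd17b7 (r = 0.98), Mccc2 (r = 0.98), Cyp51 (r = 0.97) and Sc5d (r = 0.97). Of these, 4 are enzymes of the later steps of sterol synthesis that stood in the list of other enzymes, and Mccc2, a subunit of the leucine-breakdown enzyme methylcrotonoyl-CoA carboxylase, was in no list.

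The probes not used for the 8 genes gave a further reading of the same RNA. Of 9 such probes, 8 were lower with KLA at 12 h in EPM and 6 in BMDM, and of the 6 of them well above background in every channel, 5 and 6 were lower. The used probes lay on mm8, by the files, at chr7:143657738-143657797 for Dhcr7, chr15:59160510-59160569 for Sqle, chr10:75996963-75997022 for Lss and chr5:28408493-28408552 for Insig1, and at chr3:89180817-89180957 for Fdps. Those of Hmgcs1 (chr13_random:114807-114866), Idi1 (chr2:53516550-53516609) and Fdft1 (chr14:62101042-62105282) complete the set, and their exon or UTR position was not determined here. The accession of the Idi1 probes is not listed for Idi1 in the RefSeq table used here, so that the probe may read a near-identical copy, and Idi1 values are uncertain to that extent.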

How the data were processed

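RNA of 12 conditions was measured on 12 Agilent 2-colour arrays with 2 biological replicates per condition. The authors deposited scanner files from Feature Extraction 9.5.3.1 (named in the submitters' processing notes) with the mean intensity, the median background intensity and a processed intensity of each spot, and a table of normalized intensity values on a linear scale (column medians 73.8 to 80.1) whose normalization is not given in the sources used here. That table served as an alternative. The 2 files of each of the 12 arrays had the same content, so that Cy5 and Cy3 values were taken from their respective columns.

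Background was corrected with normexp (offset 50), followed by loess within arrays and Aquantile between arrays, which gave log2 values per channel. Spots with an outlier mark became missing, repeated spots of a probe were averaged, and the probe with the highest mean stood for a gene. Genes entered the test if some condition had both its channels well above background (17339 genes, 134 missing values). The fit (R 4.3.3, limma 3.58.1) estimated a mean for each condition, which left 12 residual degrees of freedom, and p-values were adjusted over all genes by Benjamini-Hochberg (threshold 0.05). It was tested on simulated data. The number of arrays and signal over background limit the precision.

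Replicates are named by dye in every condition. Cy5 minus Cy3 deviations correlated across genes in 66 of 66 array pairs (r from 0.26 to 0.63), so the dye pairs the channels, and a fit with the dye as replicate block was made. The labels give the cultures as biological replicates. The genes named are the 8 members, listed pathway genes with stated roles, marker genes, and genes among the 6 most alike in pattern. Some of these genes are not reported here. The members, gene lists, promoter letters and alternatives were chosen with earlier results of these data known. Promoters are from RefSeq.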

Additional observations from a re-analysis of the deposited data

Results flagged for a closer look

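Changes with KLA that differed between cell types or time points by a test of the difference itself are given here, as differences of log2 changes (adjusted p under 0.05, limma). Between EPM and BMDM at 12 h, Sqle differed by 0.58.

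Between B cells as labelled and the mean of the macrophages at 1 h, Idi1 differed by -0.51, Insig1 by -0.49 and Fdps by 0.30. At 12 h the difference was 2.01 for Sqle, 1.93 for Dhcr7, 1.64 for Idi1, 1.36 for Fdps, 1.15 for Hmgcs1, 0.94 for Fdft1, 0.88 for Lss and 0.25 for Insig1. With the disputed B cell arrays exchanged, the 12 h differences kept their sign (for example Idi1 3.71) and the 1 h value of Idi1 was 1.56.

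Between 12 h and 1 h in EPM, the KLA change differed by -2.24 for Dhcr7, -1.83 for Idi1, -1.61 for Hmgcs1, -1.49 for Sqle, -1.05 for Fdft1, -0.97 for Fdps and -0.94 for Insig1. In BMDM it differed by -1.99 for Sqle, -1.90 for Dhcr7, -1.57 for Idi1, -1.33 for Hmgcs1, -1.00 for Insig1, -0.99 for Fdps and -0.67 for Fdft1. In B cells Idi1 differed by 0.45.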

How the results depend on the processing

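At 12 h the fall of the 8 genes in EPM and BMDM was found under every alternative except arrays as samples (0 of 8 in EPM, 1 of 8 in BMDM), the mean of all probes, under which Insig1 did not pass in EPM, and single channels left out (8 to 8 in EPM, 7 to 8 in BMDM). At 1 h, with channels left out, the counts were 2 to 3 higher and 1 to 2 lower in EPM, and 1 to 3 higher and 1 to 3 lower in BMDM. Arrays as samples gave 0 higher and 0 lower in both, in a fit whose spread comes only from the early and 12 h controls, which also differ in time. The authors' table gave 1 lower in EPM and 1 lower in BMDM, where a threshold of 0.01 also gave 1, and no normalization between arrays and the replicate block gave 4. For Dhcr7 in EPM at 1 h the processed signals gave -0.21 and the mean of probes -0.17, both past the threshold, against 0.058. That mean brought Hmgcs1 at 12 h to -0.59 in EPM and -0.24 in BMDM. Among B cells at 1 h, 0 were higher as labelled, 8 in the authors' table, 8 after the exchange, 2 with the replicate block and 1 with the mean of probes. The 1 lower gene was 0 with an offset of 16, processed signals, the authors' table, the mean of probes, only the B cell conditions, arrays as samples, the exchange, a threshold of 0.01, and each channel left out (0 to 0). At 12 h B cells had 8 higher in the authors' table, 8 after the exchange, 8 without both disputed arrays, 1 with the replicate block, and 0 to 1 with channels left out. Values that turned sign in B cells at 1 h, in the authors' table and after the exchange, were Lss (1.07 and 0.98), Idi1 (1.70 and 1.80) and Fdps (0.50 and 0.50). At 12 h, with the disputed arrays left out as the third value, they were Fdps (0.59, 0.59 and 0.49), Fdft1 (0.59, 0.56 and 0.58), Dhcr7 (0.97, 0.98 and 1.28) and Insig1 (0.28, 0.21 and 0.39). Among the other comparisons 30 values of the 8 genes turned sign where the main or the alternative value passed. Of them 23 did so in the authors' table or by the exchange. The other 7 were Fdps with the mean of probes against B cells (-0.28 for EPM and -0.32 for BMDM early, -0.25 for EPM at 12 h), and with no normalization between arrays Idi1 (0.22, EPM minus B cells at 12 h), Fdps (0.18, BMDM minus B cells at 12 h), and Lss (0.34) and Idi1 (0.31) for the difference of the 12 h changes of EPM and BMDM. Of 648 values of the KLA changes without left-out channels, 556 kept their side of the threshold. A change of sign where neither value passed was counted as kept. The block changed no other call of the 8 genes than those given in the report. The cause of these differences was not tested.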
